A study of Mus musculus with 15 samples.

Results

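The 43 genes described here were silent, or nearly so, in 6DT1 mouse mammary cancer cells that lack CLIC4 and were expressed in the wild-type cells. They were selected on their counts in the 2 genotypes, from a table of 55341 gene symbols. A gene entered with 5 or fewer counts summed over the 7 knockout libraries, a mean of 2 CPM (counts per M counts of the library) or more over the 8 wild-type libraries, and 0.5 CPM or more in each wild-type library. Of 52 genes that met these criteria, 9 were set aside (Thrb, Ppargc1a, Itga8, Ephb2, Ephb6, Bcat1, Lcp1, Mid2 and Trim44). The knockout and wild-type counts therefore chose the members, and the genotype difference of the members is given below as a description, with no test.

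6DT1 is an established mammary cancer line of FVB/N1 background. CLIC4 is a chloride intracellular channel protein. The 4 groups were untreated wild-type cells (4 libraries, replicates 9 to 12), wild-type cells given 1 µM hydrogen peroxide (H2O2) for 24 h (4 libraries, replicates 13 to 16), untreated Clic4-knockout cells (4 libraries, replicates 1 to 4) and knockout cells given the same H2O2 treatment (3 libraries, replicates 5, 7 and 8). Polyadenylated RNA was sequenced in bulk, to between 12.3 and 16.0 M counts per library. Neither the independence of the cultures nor the number of knockout clones is given in the labels. A difference between genotypes therefore cannot be told apart from a difference between 2 clones or lines, and p-values measure only the spread between these libraries.

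Raw Clic4 levels were 317 to 330 CPM in the wild-type libraries and 63.5 to 75.4 CPM in the knockout libraries, in the direction the labels give. Of the epithelial markers, Krt8 was found at 614 to 676 CPM in all 15 libraries. Krt18 was at 333 to 353 CPM in wild-type and 144 to 174 CPM in knockout libraries, and Krt19 at 51.6 to 62.5 CPM and 146 to 175 CPM. Epcam and Cdh1 reached at most 0.0689 and 0.145 CPM in any library. Untreated wild-type replicate 9 stood apart. Its genotype field reads knockout against a title of wild type. The 43 members summed to 250 CPM in it, at the level of the other wild-type libraries. The rule required each member to be expressed in this library, so that sum does not speak to its genotype. Replicate 9 held 330 CPM of Clic4, against 63.5 to 75.4 CPM in the knockout libraries. It also held blood-cell transcripts: 15 of 19 immune markers had their highest wild-type value there, and 7 of them were at 0 in the other 7 wild-type libraries. S100a9 reached 51.2 CPM in this library. The immune markers summed to 847 CPM in it, against 702 to 758 CPM in the other untreated wild-type libraries and 731 to 746 CPM in the treated ones. In the knockout libraries the same sum was 850 to 945 CPM untreated and 877 to 886 CPM with H2O2. Most of it was Itgb2, at 445 to 511 CPM in knockout and 293 to 324 CPM in wild-type libraries, and Cd68. Cd68 was lower in the knockout, at 263 to 302 against 385 to 432 CPM. Srgn was higher there, at 129 to 141 against 14.5 to 21.6 CPM. Ptprc and S100a9 had no count in any knockout library. Sums of other marker lists also differed by genotype, mostly through 1 gene each. Endothelial markers summed to 23.2 to 26.1 CPM in wild-type and 4.90 to 5.69 CPM in knockout libraries, with Vwf at 20.2 to 24.7 and 1.43 to 2.41 CPM, while Tie1 and Cdh5 were higher in the knockout. Neuronal markers summed to 30.2 to 34.7 and 4.64 to 6.69 CPM, nearly all of it Map2, and fibroblast markers to 17.0 to 22.2 and 11.1 to 13.8 CPM, mostly Pdgfra. The part of other cell types in the genotype difference of the 43 genes was not tested.

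Genes can be shut off in a whole cell population by DNA methylation of their promoters, by Polycomb complexes that mark histone H3, by methylation of histone H3 on another lysine, or by loss of the transcription factors that drive them. Promoters rich in CpG dinucleotides are usually unmethylated in normal cells and may become methylated in cancer lines. Transcripts alone do not show which of these is at work, and a population that grows from 1 cell also keeps the expression state of that cell. RNA from bulk samples cannot tell fewer expressing cells from less RNA per cell.

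Across the 7 knockout libraries the 43 members gave 69 counts in all, against 28566 counts in the 8 wild-type libraries. The summed level was 235 to 252 CPM in every wild-type library. It was 0.829, 0.538, 0.874 and 1.06 CPM in the untreated knockout libraries, and 0.689, 0.408 and 0.325 CPM in those given H2O2. The knockout level was 0.281% of the wild-type level. In the knockout, 14 members had no count at all, 12 had 1 count, 6 had 2, 2 had 3, 6 had 4 and 3 had 5. No member had more than 2 counts in any knockout library. Scara5 and Patj were each counted in 4 knockout libraries, and no other member was counted in more than 3.

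**Figure D1:**
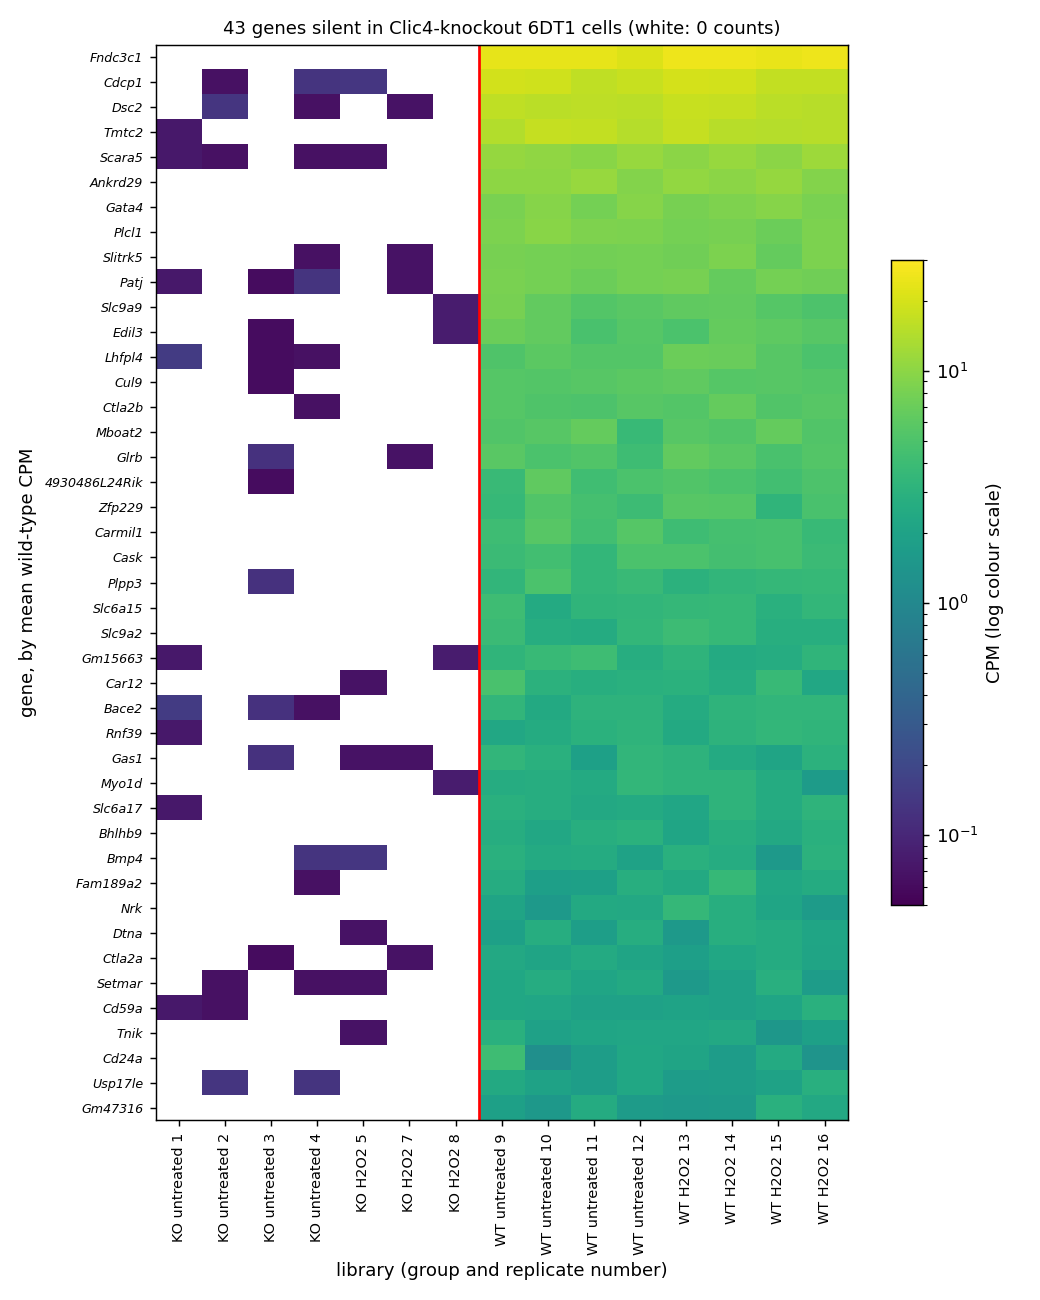
CPM of each of the 43 genes (rows, ordered by mean wild-type CPM) in each library (columns, named by group and replicate number), on a log colour scale with 0 counts in white; a red line parts knockout from wild type. The knockout columns hold scattered single counts, of at most 2 per gene and library, while every wild-type cell of the plot is at 1.22 CPM or more.

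In wild-type cells the members were lowly expressed. Their mean CPM ran from 2.03 to 24.1, with a median of 3.63 CPM, against a median of 27.4 CPM over the 13085 genes tested. There were 6 members at 10 CPM or more, and 16 under 3 CPM. Per length the median was 0.904 RPKM (reads per kilobase per M counts), against 6.58 RPKM over genes tested, and 18 of the 43 reached 1 RPKM. The spread between the 8 wild-type libraries, both treatments together, had a median coefficient of variation of 14.6%. Counting error alone would give a median of 13.7% at these counts. By biotype, 41 members were protein-coding, Gm47316 was a lincRNA and Gm15663 a processed transcript. All 43 passed the filter on low counts, with the wild-type libraries providing the counts.

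The rule's limits fell within a continuous range of values. Cdcp1, Patj and Bace2 entered with 5 knockout counts, while Gm6166 and Mal, each with 8, and Tnfrsf21, with 7, stayed out at wild-type means of 3.86, 3.67 and 3.51 CPM. They were among 9 genes that had 6 to 10 knockout counts and met the other limits, of which Esr1 was also on the list of genes to leave out. At the lower wild-type limit, Cd24a, Usp17le and Gm47316 entered with means of 2.12, 2.10 and 2.03 CPM. Setbp1, Gfra4 and Khdrbs3 stayed out with 1.94, 1.93 and 1.88 CPM, among 38 such genes. The remaining 4 genes just outside, Mpo, Olfm4, Ngp and S100a9, are granulocyte or myeloid genes that passed the mean through replicate 9 and were at 0 in at least 1 other wild-type library.

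Genes of cell adhesion, polarity and the cell surface formed a group of 7. Cdcp1 encodes a transmembrane glycoprotein that Src-family kinases phosphorylate. Its untreated wild-type libraries held 19.4, 18.8, 16.4 and 17.7 CPM and the treated ones 19.8, 19.2, 16.7 and 16.7 CPM. In the knockout it had 1 count in replicate 2 and 2 counts each in replicates 4 and 5, and none elsewhere. The groups of the 2 genotypes were far apart, and the ratio of wild type to knockout was 366, with a 95% exact interval of 156 to 1127 that covers counting error only. Dsc2, a desmosomal cadherin, held 16.1, 15.6, 15.7 and 15.6 CPM in untreated wild type and 17.4, 17.2, 15.5 and 14.9 CPM after H2O2. Its 4 knockout counts lay in replicates 2, 4 and 7, for a ratio of 404 (158 to 1485).

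Slitrk5, a leucine-rich repeat protein of synapses, held 8.12, 7.96, 7.70 and 7.87 CPM untreated and 7.51, 8.46, 6.65 and 8.39 CPM treated. It had 1 count in each of knockout replicates 4 and 7. Patj, a scaffold of the Crumbs polarity complex at tight junctions, held 8.32, 7.81, 7.14 and 7.87 CPM untreated and 8.02, 6.63, 7.92 and 7.45 CPM treated, and its 5 knockout counts were spread over 4 libraries. Its ratio of 154 (65.8 to 476) was lower than that of Cdcp1, which had as many knockout counts. Edil3, a secreted integrin ligand, ranged from 4.76 to 7.09 CPM in wild-type cells and had 2 knockout counts. The scaffold Cask, a membrane-associated guanylate kinase, lay at 3.43 to 4.96 CPM and had no knockout count, so that wild type was at least 146-fold higher with the 7 knockout libraries set at a floor of 3 counts in all.

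Cd24a, a small glycoprotein anchored in the membrane by lipid, was the most variable member. Its untreated wild-type libraries held 4.09, 1.22, 1.75 and 2.24 CPM and the treated ones 2.10, 1.70, 2.47 and 1.38 CPM, a coefficient of variation of 42.6%. The highest value was that of replicate 9, the library with blood-cell transcripts, and Cd24a is also a gene of blood cells. Over the other 7 wild-type libraries its mean was 1.84 CPM, under the limit of the rule. The part of the blood-cell transcripts in this value was not tested. Without replicate 9 Cd24a left the set and 42 members remained.

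Transporters, channels and receptors for uptake numbered 8. Scara5, a scavenger receptor that takes up ferritin, held 11.0, 10.3, 9.73 and 11.1 CPM untreated and 9.86, 11.1, 9.94 and 11.8 CPM with H2O2. Its knockout libraries 1, 2, 4 and 5 had 1 count each, and the ratio was 267 (104 to 983). Slc9a9, an endosomal sodium/proton exchanger, stood at 8.05, 6.38, 5.46 and 5.89 CPM untreated and 6.23, 6.50, 5.60 and 4.99 CPM treated. It was highest in replicate 9 and had a single knockout count. The related exchanger Slc9a2, of the plasma membrane, lay at 2.59 to 4.01 CPM with no knockout count, at least 110-fold higher in wild type.

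Lhfpl4, which clusters GABA-A receptors at inhibitory synapses, held 5.12, 6.02, 5.46 and 5.44 CPM untreated and 7.06, 7.01, 5.75 and 4.85 CPM treated, with 4 knockout counts. Glrb, the beta subunit of the glycine receptor, lay at 4.10 to 6.43 CPM, with 3 knockout counts. The amino acid transporters Slc6a15 and Slc6a17 lay at 2.51 to 4.16 CPM and at 2.23 to 3.22 CPM, with 0 knockout counts and 1. Car12, a carbonic anhydrase of the cell surface, was at 4.78 CPM in replicate 9 and at 2.32 to 3.74 CPM in the other 7 wild-type libraries. Its mean over those 7 was 2.91 CPM, still inside the rule. Replicate 9 held the highest wild-type value for 9 members (Patj, Slc9a9, Edil3, Slc6a15, Car12, Bace2, Gas1, Tnik and Cd24a), as treated replicate 13 did for another 9.

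Ligands, co-receptors and intracellular signalling proteins made up 6 members. Bmp4, a ligand of the bone morphogenetic protein pathway, held 2.93, 2.51, 2.59 and 1.98 CPM untreated and 2.93, 2.65, 1.57 and 3.04 CPM treated. Knockout replicates 4 and 5 had 2 counts each, and the ratio of 63.8 (24.7 to 236) was among the smaller ones. Gas1, a Hedgehog co-receptor, held 3.41, 2.87, 1.89 and 3.33 CPM untreated and 3.12, 2.52, 2.09 and 3.04 CPM treated. It had 4 counts over 3 knockout libraries, a ratio of 70.5 (27.3 to 260).

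Plcl1 is a relative of phospholipase C without catalytic activity that binds inositol phosphate and GABA-A receptor partners. It held 8.46, 9.60, 8.61 and 8.45 CPM untreated and 7.95, 8.14, 7.10 and 8.47 CPM treated, and no knockout count, at least 281-fold higher in wild type. The annotation places 2 further transcribed loci inside Plcl1, Gm38056 on the same strand and Gm6644 on the other. Both had more counts in the knockout (7149 and 5978 over 7 libraries) than in wild type (5444 and 4444 over 8). Of the kinases, Tnik lay at 1.49 to 2.87 CPM and Nrk at 1.58 to 3.50 CPM. Bhlhb9, an armadillo-repeat protein of the GASP family, lay at 2.16 to 3.01 CPM with no knockout count, while Gprasp1, which overlaps it on the same strand, kept 1417 knockout counts.

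Proteases, their inhibitors, lipid enzymes, a glycosyltransferase and a complement inhibitor made up another 7 members. Tmtc2, an O-mannosyltransferase of the endoplasmic reticulum, held 14.2, 17.0, 16.7 and 14.7 CPM untreated and 16.9, 15.2, 14.7 and 15.1 CPM treated. It had 1 count in the knockout, in replicate 1, and a ratio of 1568 (281 to 61966). Mboat2, a lysophospholipid acyltransferase, held 5.25, 5.66, 6.65 and 3.71 CPM untreated and 5.73, 5.30, 6.65 and 5.28 CPM treated, with no knockout count. Plpp3, which dephosphorylates bioactive lipids outside the cell, lay at 3.05 to 4.87 CPM with 2 knockout counts. The aspartyl protease Bace2 lay at 2.44 to 3.41 CPM with 5, and the complement inhibitor Cd59a at 1.92 to 2.90 CPM with 2.

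Ctla2a and Ctla2b, inhibitors of cathepsin-like cysteine proteases, lie side by side on chromosome 13, next to a further member, 4930486L24Rik. Ctla2b held 5.59, 5.16, 4.97 and 5.63 CPM untreated and 5.47, 6.63, 5.30 and 5.72 CPM treated, with 1 knockout count. Ctla2a held 2.39, 2.08, 2.52 and 2.11 CPM untreated and 1.84, 2.27, 2.54 and 2.10 CPM treated, with 2 knockout counts. 4930486L24Rik held 3.82, 6.31, 4.20 and 4.93 CPM untreated and 5.34, 4.86, 4.33 and 4.99 CPM treated, with 1. Their transcripts are similar, at 93.4% identity between Ctla2a and Ctla2b over the aligned stretch, and the longer models Gm49391 and Gm49392 share 99.9% and 100% of aligned bases with Ctla2b and 4930486L24Rik. The division of reads among these genes is therefore uncertain, while their joint silence in the knockout does not rest on it: the 5 together had 1658 wild-type and 8 knockout counts. The upstream sequences are shown because they let the 3 neighbours be compared with each other. The 250 bases before the start of Ctla2b (chr13:60897448-60897697, minus strand), Ctla2a (chr13:60936626-60936875, minus strand) and 4930486L24Rik (chr13:60864417-60864666, minus strand) are from RefSeq on GRCm38.p6, with each CpG in capitals:
Ctla2b: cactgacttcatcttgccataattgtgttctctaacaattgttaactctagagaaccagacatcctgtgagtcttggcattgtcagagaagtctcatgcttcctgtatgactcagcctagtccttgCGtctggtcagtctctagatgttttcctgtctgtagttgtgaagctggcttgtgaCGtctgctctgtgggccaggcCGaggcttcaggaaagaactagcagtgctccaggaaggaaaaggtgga
Ctla2a: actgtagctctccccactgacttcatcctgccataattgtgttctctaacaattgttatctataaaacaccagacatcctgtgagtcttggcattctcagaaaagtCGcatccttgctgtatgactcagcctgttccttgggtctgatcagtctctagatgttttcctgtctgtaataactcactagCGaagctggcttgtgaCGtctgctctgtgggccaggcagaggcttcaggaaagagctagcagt
4930486L24Rik: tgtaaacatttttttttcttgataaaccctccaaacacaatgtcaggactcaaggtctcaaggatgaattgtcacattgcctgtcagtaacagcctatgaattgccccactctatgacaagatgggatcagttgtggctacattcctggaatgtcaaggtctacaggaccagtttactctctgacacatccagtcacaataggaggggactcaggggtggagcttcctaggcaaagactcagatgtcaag
The first pair matched at 209 of 228 aligned bases (91.7%). Against 4930486L24Rik, 152 of 205 aligned bases matched for Ctla2a (74.1%) and 148 of 210 for Ctla2b (70.5%). The identity that unrelated windows reach was not computed, so the values against 4930486L24Rik do not show a shared origin. CpG was rare in these windows, with 3, 3 and 0 CpG.

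CpG content varied widely among the members' promoters. For contrast, the upstream windows of Tmtc2 (chr10:105574480-105574729, minus strand), which was among the most highly counted members, and of Mboat2 (chr12:24831349-24831598, plus strand), at the CpG-rich end, are given in the same way, with each CpG in capitals:
Tmtc2: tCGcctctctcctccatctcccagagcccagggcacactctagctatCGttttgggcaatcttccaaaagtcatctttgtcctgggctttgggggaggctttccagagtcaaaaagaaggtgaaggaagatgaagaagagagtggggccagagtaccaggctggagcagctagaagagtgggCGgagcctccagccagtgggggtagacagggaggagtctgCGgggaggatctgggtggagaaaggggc
Mboat2: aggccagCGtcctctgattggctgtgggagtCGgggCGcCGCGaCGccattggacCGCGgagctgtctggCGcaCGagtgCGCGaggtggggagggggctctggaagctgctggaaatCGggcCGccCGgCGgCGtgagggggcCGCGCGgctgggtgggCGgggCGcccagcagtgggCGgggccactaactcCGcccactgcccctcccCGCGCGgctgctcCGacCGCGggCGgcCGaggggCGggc
These windows hold 4 and 33 CpG. The noncoding member Gm15663 starts on the other strand within Tmtc2, and the RefSeq promoter windows of the 2 genes overlap. Gm15663 held 3.27, 3.73, 4.13 and 2.69 CPM untreated and 3.18, 2.52, 2.62 and 3.26 CPM treated, with 2 knockout counts. The library kit marks strand, but the counting setting is not given in the sources used here, so reads of Tmtc2 and Gm15663 may not be fully separate.

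Nuclear and ubiquitin-pathway genes were 6. Gata4, a zinc finger transcription factor best known from heart and gut endoderm, held 8.32, 9.46, 7.91 and 9.35 CPM untreated and 8.08, 8.65, 9.49 and 8.32 CPM treated. It had no count in any knockout library, at least 292-fold higher in wild type. Other markers of those tissues were at or near 0: 6 of 7 heart muscle markers were at 0 in every library, and the seventh, Tnnt2, was at 0.932 to 1.89 CPM in wild type and 0.408 to 1.06 CPM in the knockout. Tnnt2 was lower in the knockout by edgeR's test without treatment (log2 -0.69) and with H2O2 (-1.41). The endoderm markers summed to at most 0.140 CPM in wild type and 0.829 CPM in the knockout. Cul9, a cullin of ubiquitin ligases that binds p53, held 5.59, 5.38, 5.67 and 5.95 CPM untreated and 6.23, 5.62, 5.75 and 5.36 CPM treated, with 1 knockout count. Its coefficient of variation was 5.13%, the lowest of the 43.

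Zfp229, a zinc finger gene, lay at 3.29 to 5.66 CPM with no knockout count. Rnf39, a RING finger gene of the major histocompatibility region, lay at 2.32 to 3.44 CPM with 1. Setmar, which carries a histone methyltransferase domain, lay at 1.59 to 2.84 CPM with 3. Usp17le, a deubiquitinase of a repeated family, lay at 1.72 to 2.82 CPM with 4 knockout counts. It shares 94.7% of aligned transcript bases with Usp17la, and further copies in the annotation match at 90% or more, so its value is uncertain.

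Carmil1, Myo1d and Dtna belong to the cytoskeleton. Carmil1, a regulator of actin capping protein, held 4.09, 5.73, 4.34 and 5.51 CPM untreated and 4.07, 4.55, 4.63 and 3.69 CPM treated, with no knockout count. Myo1d, a class I myosin, lay at 1.66 to 3.46 CPM with 1 knockout count. Dtna, dystrobrevin alpha of the dystrophin complex, lay at 1.59 to 2.78 CPM with 1.

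The last 6 members have less defined roles. Fndc3c1, a fibronectin type III domain gene on chromosome X, had the most counts of the 43. It held 23.4, 23.7, 23.7 and 21.6 CPM untreated and 25.4, 25.3, 24.3 and 25.4 CPM with H2O2, and no count in the knockout, at least 810-fold higher in wild type. Its mean of 26.0 RPKM in wild type was far above the 3.24 RPKM of the next member, Ctla2b, but rested on the length behind the table. The deposited values imply 0.928 kb for Fndc3c1, while its annotated exons cover 6.32 kb. No other member had an annotated length over 3 times that in the table. Among its 7 annotated transcripts the main coding one has 4859 bases, and a retained-intron transcript has 932. Which transcript the reads came from cannot be read from gene counts.

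Ankrd29, an ankyrin repeat gene, held 10.2, 10.1, 11.2 and 9.22 CPM untreated and 10.6, 9.98, 10.8 and 9.12 CPM treated, and no knockout count, at least 341-fold higher in wild type. Fam189a2 lay at 1.86 to 3.60 CPM with 1 knockout count. The lincRNA Gm47316 had the lowest mean of the set and held 1.91, 1.51, 2.59 and 1.66 CPM untreated and 1.59, 1.64, 2.91 and 2.39 CPM treated. Leaving out wild-type replicate 11, 15 or 16 took Gm47316 below the limit, and leaving out replicate 16 did the same for Usp17le. The upstream sequences of the X-linked Fndc3c1 (chrX:106485230-106485479, minus strand) and of Fam189a2 (chr19:24031020-24031269, minus strand) are shown as the most counted member and as a further CpG-rich one, with each CpG in capitals:
Fndc3c1: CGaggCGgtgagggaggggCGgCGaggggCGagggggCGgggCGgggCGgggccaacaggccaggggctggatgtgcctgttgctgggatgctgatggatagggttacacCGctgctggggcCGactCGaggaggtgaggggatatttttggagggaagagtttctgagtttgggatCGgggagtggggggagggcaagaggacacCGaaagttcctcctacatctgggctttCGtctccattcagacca
Fam189a2: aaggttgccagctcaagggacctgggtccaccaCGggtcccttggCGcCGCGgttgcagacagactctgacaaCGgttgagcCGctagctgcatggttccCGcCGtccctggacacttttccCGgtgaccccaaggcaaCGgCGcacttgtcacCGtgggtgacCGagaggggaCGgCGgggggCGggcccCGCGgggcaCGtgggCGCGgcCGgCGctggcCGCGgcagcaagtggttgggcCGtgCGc
They hold 14 and 27 CpG.

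Of the 43 genes, 27 had an entry in the RefSeq promoter table, whose windows run from 250 bases before to 50 bases after the start. A window was called CpG island-like with an observed over expected CpG ratio of at least 0.6 and at least 50% G and C. That held for 13 of 27 members (48.1%), for 70.6% of the 9579 tested genes with an entry and for 41.6% of all 20595 entries. The members' share lay between these, but with a ratio of at least 0.75 it was 29.6%, against 52.5% of tested genes and 29.7% of all entries. At the other end, 4 of 27 (14.8%) had a ratio under 0.25 (Cd59a, Ctla2a, Ctla2b and 4930486L24Rik), against 7.50% of tested genes and 30.5% of all entries. Among genes with the opposite pattern, silent in wild type and expressed in the knockout by the same limits (22 genes, 16 with an entry), 1 window (6.25%) was CpG island-like.

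**Figure D2:**
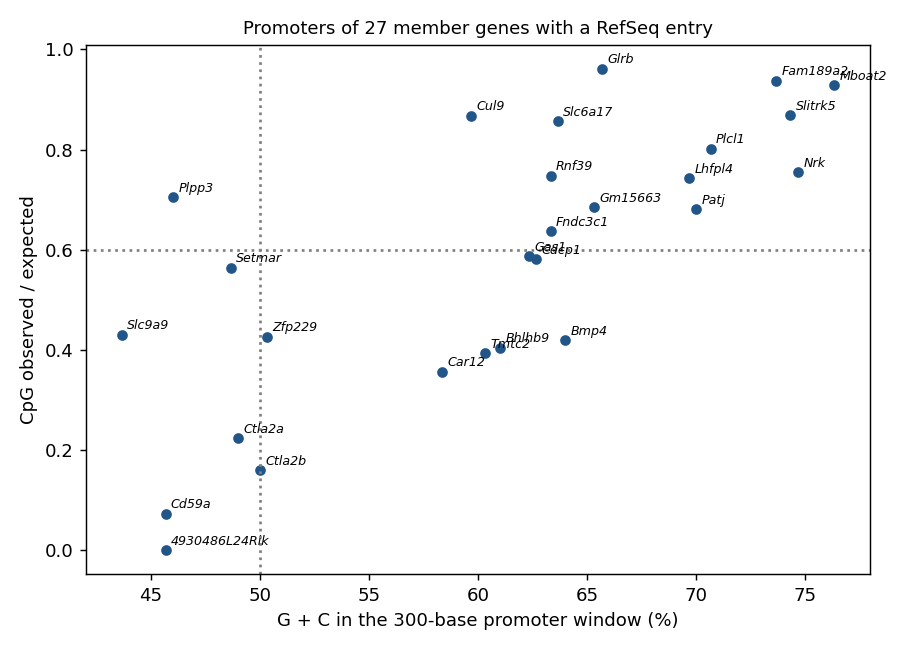
Observed over expected CpG ratio (vertical axis) against the share of G and C (horizontal axis, %) in the 300-base promoter window of 27 member genes, 1 point per gene; dotted lines mark 0.6 and 50%. The 13 windows at the upper right are CpG island-like, and the Ctla2 genes, 4930486L24Rik and Cd59a lie at the lower left.

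Motifs were searched on both strands of these windows. GGGCGG, the core of the GC box, was in 20 of 27 (74.1%) against 65.4% of tested genes and 42.7% of all entries. CCAAT was in 8 (29.6%) against 39.4% of tested genes. TATAAA was in 2, Rnf39 and Ctla2a (7.41% against 6.87%). TGANTCA, which AP-1 factors bind, was in 4 windows (14.8% against 5.15% of tested genes): Slc9a9, Slc6a17, Ctla2a and Ctla2b, of which the last pair share most of their sequence. The GATA forms (AGATAA and AGATAG, and the same with T for the first base) were in 5 (18.5% against 17.8%), GGAATG, bound by TEAD factors, in 3 (11.1% against 11.8%) and CACGTG in 2 (7.41% against 10.5%). The full palindromic estrogen response element was in 0 of 27 windows and in 0.0104% of tested genes. With 27 windows, 1 gene moves a share by several percentage points.

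The choice of members did not compare H2O2 with untreated libraries, so this comparison could be tested in wild-type cells. The rule did require 0.5 CPM or more in each wild-type library, which kept out genes near 0 with or without H2O2. In the knockout the members had too few counts for any treatment effect to be read. With edgeR's quasi-likelihood test and Benjamini-Hochberg adjustment over 13085 genes, 0 of 43 members passed an adjusted p of 0.05, against 2 of all genes tested (0.0153% called). None of the 43 had an unadjusted p under 0.05, while 847 of all genes tested did. DESeq2 also called 0 members, with 0 at an unadjusted p under 0.05, and called 12 genes in all, but gave no adjusted p for 42 of the 43. By sign, 22 members were higher and 21 lower with H2O2. The median log2 difference was 0.00, as it was over all genes tested, and single members ranged from -0.29 to 0.25.

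The intervals bound what could have been missed. All 43 members had a 95% interval within a 2-fold change in either direction, and 34 lay within 1.5-fold. The smallest p belonged to Fndc3c1, at a log2 difference of 0.12 (SE 0.07, unadjusted p = 0.105, adjusted p = 0.822 with edgeR). Its untreated libraries reached 23.7 CPM and the treated ones began at 24.3 CPM, so the groups did not overlap. That was the case for this member alone, and for 3.61% of genes tested. Next came Carmil1 at -0.22 (adjusted p = 0.882), Plcl1 at -0.15 (adjusted p = 0.885), Gm15663 at -0.25 (adjusted p = 0.891) and Lhfpl4 at 0.17 (adjusted p = 0.917). Cd24a had the widest interval, from -0.97 to 0.39. Without untreated wild-type replicate 9, 0 members passed as well, and the log2 difference of Fndc3c1 was again 0.12.

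**Figure D3:**
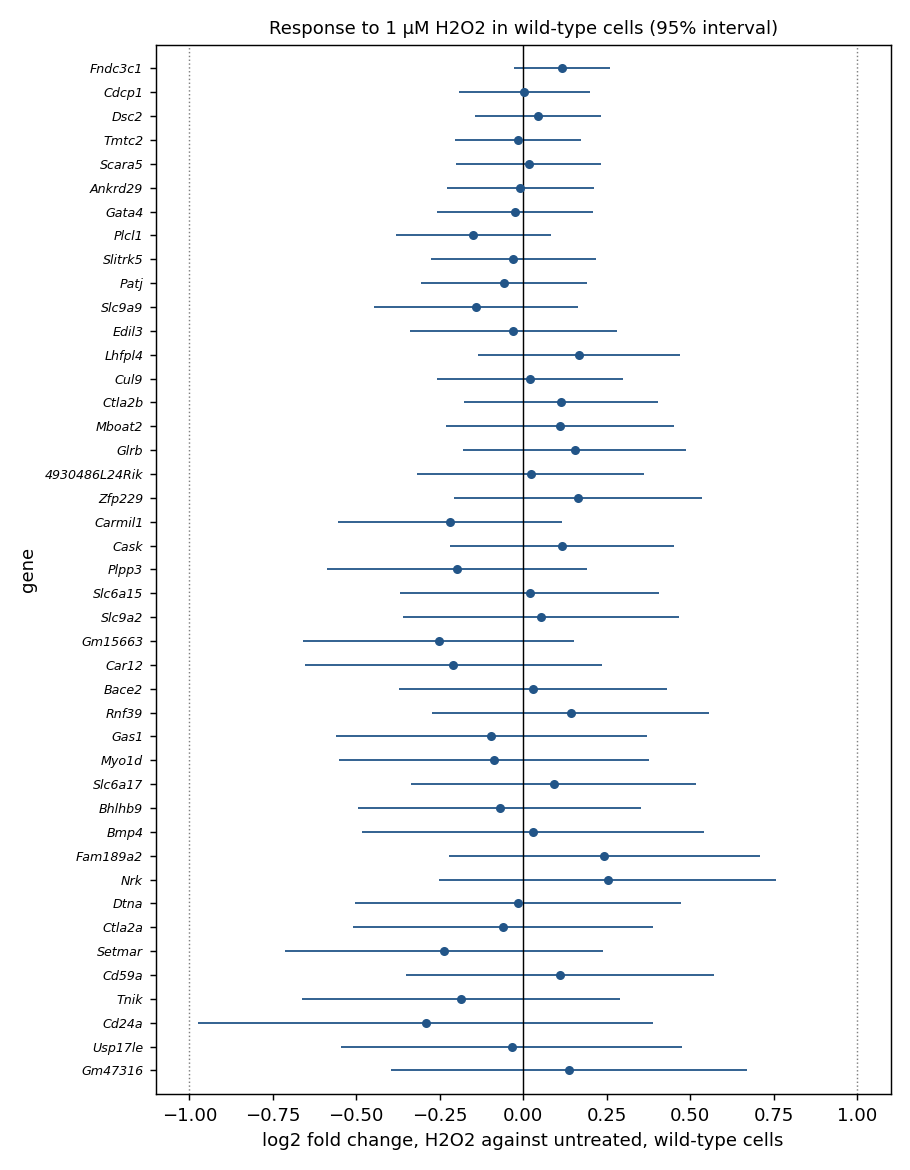
Log2 fold change with H2O2 in wild-type cells (horizontal axis) for each of the 43 genes (vertical axis, ordered by wild-type CPM); points are edgeR estimates and bars 95% intervals. All bars cross 0 and lie between the dotted lines at -1 and 1, and they widen toward the lowly expressed genes at the bottom.

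The members lay on 17 chromosomes. Chromosome 13 held 7 of them (16.3%, against 3.99% of genes tested): Carmil1, Gm47316, Gas1, 4930486L24Rik, Ctla2b, Ctla2a and Edil3. Chromosome X held 4 (9.30%, against 3.02%): Cask, Fndc3c1, Bhlhb9 and Nrk. Most members were far from each other. Of 26 pairs next to each other on a chromosome, 4 lay within 1000 kb: Tmtc2 with Gm15663, Gas1 with 4930486L24Rik at 665 kb, 4930486L24Rik with Ctla2b at 30.9 kb, and Ctla2b with Ctla2a at 36.7 kb.

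The nearest tested gene on each side of each member gave 79 neighbours, chosen by position among genes that passed the filter on low counts. Nyx, Fyb2, Gm49391, Gm49392 and Usp17la had few knockout counts and passed that filter through the wild-type libraries. A steep decrease in these genes was therefore partly set by the filter, which applied to all genes tested. Without treatment, 35 of the 79 (44.3%) were lower in the knockout by edgeR's test, against 32.9% of all genes tested, and 22 (27.8%) were higher, against 33.9%. With H2O2, in other libraries, 37 (46.8%) were lower, against 32.4%, and 24 (30.4%) higher, against 33%. The median log2 difference of the neighbours was -0.09 without treatment and -0.06 with H2O2, close to the 0.00 of all genes tested in both. Large decreases were a minority. A log2 difference of -3 or less was found in 12 of 79 (15.2%) without treatment and 11 (13.9%) with H2O2. The shares over all genes tested, which include the members, were 2.02% and 2.14%. Of the 12, 3 overlap a member or are transcript copies of one (Gm49391, Gm49392 and Usp17la), and without such genes the count was 9 of 74 (12.2%). Leaving out wild-type replicate 9, the share of lower neighbours was 43% without treatment and 46.8% with H2O2.

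All 12 passed the test without treatment, and the 9 came from separate places. Fam167a, 165 kb from Gata4, averaged 57.6 ± 2.40 CPM (SD, n = 4) in untreated wild-type and 2.28 ± 0.337 CPM (n = 4) in untreated knockout libraries, a log2 difference of -4.62. The gene on the other side of Gata4, Fdft1 at 19.3 kb, averaged 50.7 and 49.0 CPM (log2 -0.02, adjusted p = 0.820 with edgeR). Lama3, a laminin subunit gene 28.0 kb from Ankrd29, averaged 6.27 ± 0.708 and 0.238 ± 0.0929 CPM (-4.65), while Npc1 on the other side of Ankrd29 fell by 0.85 on the log2 scale. Dsg3, a desmosomal cadherin 451 kb from Dsc2, averaged 2.74 ± 0.321 and 0.167 ± 0.0847 CPM (-3.92).

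The other steep neighbours had these values without treatment. Near Slc9a9, 1190002N15Rik averaged 37.0 ± 2.90 CPM in wild type and 2.67 ± 0.582 CPM in knockout (log2 -3.77). Aph1b, a gamma-secretase subunit gene 8.36 kb from Car12, averaged 1.78 and 0.152 CPM (-3.45). Mx1, an interferon-induced gene 4.10 kb from Bace2, averaged 3.76 and 0.280 CPM (-3.65). Nyx, 27.8 kb from Cask, had 50 wild-type counts and 1 knockout count, a ratio of 50.7 (95% exact interval 8.69 to 2041). Fyb2, 140 kb from Plpp3, had 46 and 2 counts, a ratio of 23.3 (6.10 to 198). The opposite also occurred: Nxf3, 181 kb from Bhlhb9 and chosen for mention after its values were seen, had no count in untreated wild-type libraries and averaged 0.873 CPM in the knockout. Of the 12 steep neighbours, 8 lay within 100 kb, where 17 of 35 neighbours (48.6%) were lower. Beyond that distance 18 of 44 (40.9%) were lower. The 8 include Gm49391, Gm49392 and Usp17la, which overlap a member or are transcript copies of one.

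**Figure D4:**
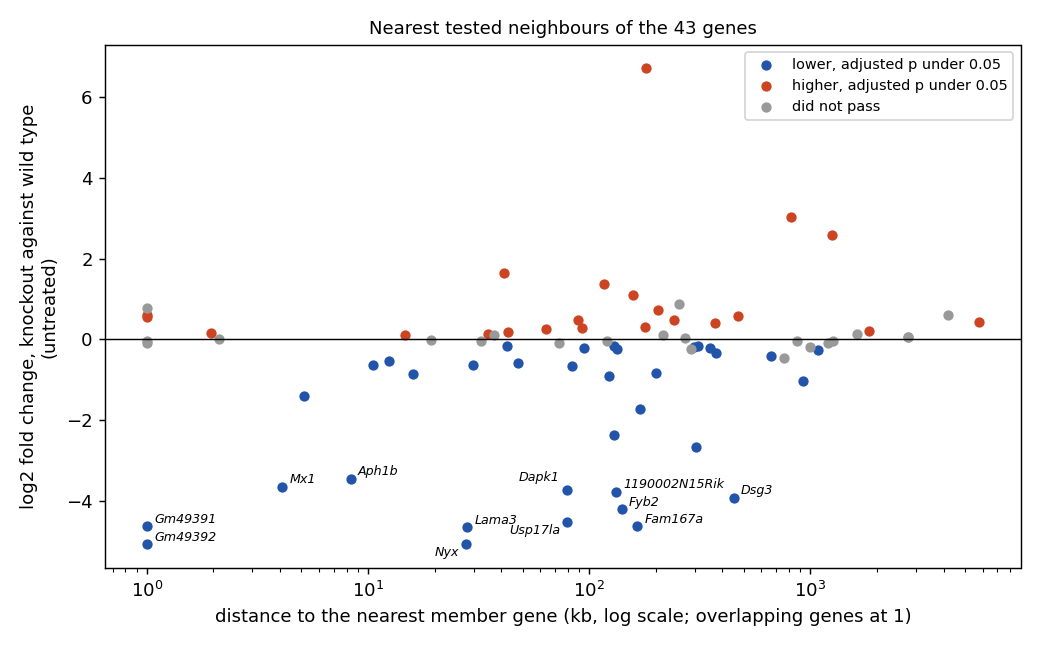
Log2 fold change of knockout against wild type without treatment (vertical axis) for the 79 nearest tested neighbours, by distance to the member gene (horizontal axis, kb on a log scale; overlapping genes are drawn at 1). Blue points were lower and red points higher with an adjusted p under 0.05; the 12 named points lie at -3 or less, spread over distances from overlap to 451 kb.

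On chromosome 13 every tested gene from Gas1 to Ctla2a was low in the knockout. For the 4 members the rule required this, and Gm49391 and Gm49392 overlap members and share transcript sequence with them. Dapk1, a death-associated protein kinase gene, was the only other tested gene there and kept the most knockout transcript. It fell from 93.0 ± 2.66 to 6.90 ± 0.290 CPM without treatment (log2 -3.72). Gm48583, a pseudogene within Dapk1, had 11 counts in wild type and 20 in the knockout. All the other genes there with 20 or more counts (Gm48488, Gm49391, Gm49392, Gm49393 and the 4 members) had 4 or fewer knockout counts in all. The call of Gm49391 was not stable: its adjusted p was 0.0356 without treatment, and of its alternative analyses 11 kept the call and 7 lost it (without untreated knockout replicate 1, 2, 3 or 4, treated knockout replicate 5 or untreated wild-type replicate 11, and with no filter on low counts). Without treatment it had 37 wild-type counts and 1 knockout count, a ratio of 37.5 (6.32 to 1520), and leaving out wild-type replicate 11 moved the fitted log2 difference from -4.63 to -2.69. The next tested genes beyond Ctla2a, the pseudogenes Gm7240 and Gm3325, had log2 differences of -0.05 and 0.12 and did not pass (adjusted p = 0.911 and 0.481 with edgeR).

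**Figure D5:**
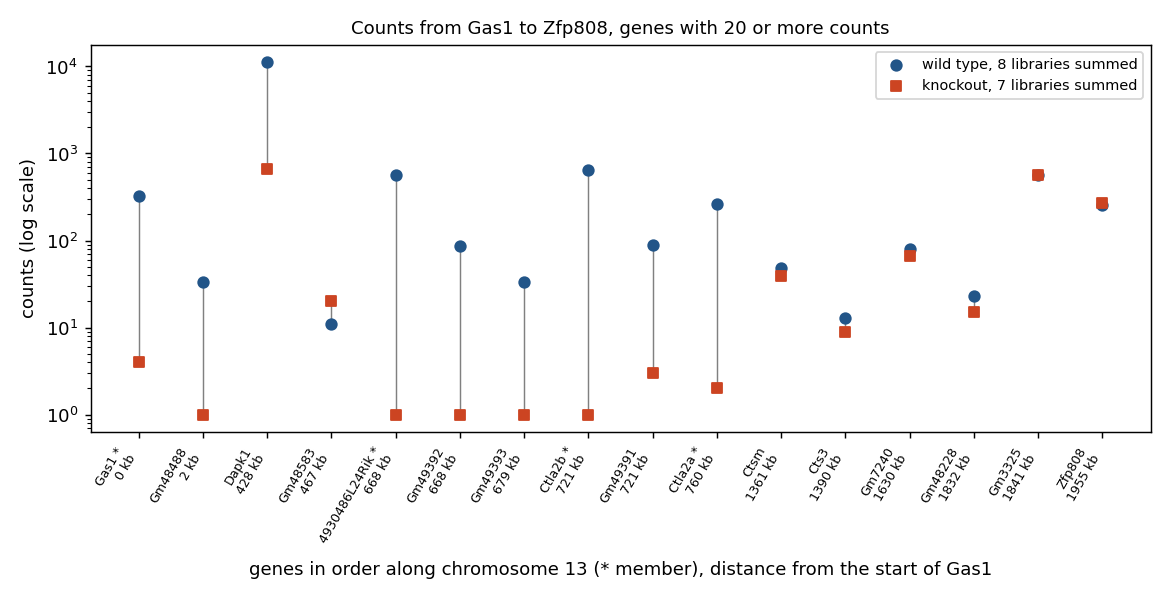
Counts summed over the 8 wild-type libraries (circles) and the 7 knockout libraries (squares), on a log axis, for genes with 20 or more counts in order along chromosome 13; labels give the distance from the start of Gas1, and asterisks mark members. The 2 symbols are far apart from Gas1 to Ctla2a, except at Gm48583, and lie closer to each other from Ctsm to Zfp808, where the plot ends.

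Related genes, sharing the letters of a member's symbol, were looked up to see whether whole families were low. Of 517 tested relatives of 21 members in 19 families, 163 (31.5%) were lower and 145 (28.0%) higher without treatment, against 32.9% and 33.9% of all genes tested. The zinc finger genes made up 325 of them. Without these, 83 of 192 (43.2%) were lower and 53 (27.6%) higher. Without replicate 9, 33.3% of the 517 were lower and 25.5% higher. Relatives of single members moved in both directions. Gata2 averaged 27.6 ± 1.19 CPM in untreated wild-type and 68.9 ± 2.93 CPM in untreated knockout libraries (log2 1.35), while Gata3 averaged 36.9 and 31.6 CPM (-0.19).

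Of the transporters related to Slc6a15 and Slc6a17, Slc6a6 rose by 0.18 on the log2 scale and Slc6a8 and Slc6a9 fell by 0.52 and 0.43. Next to Car12, the hypoxia-inducible Car9 rose from 0.681 to 2.80 CPM (2.05) and Car7 fell from 1.15 to 0.213 CPM (-2.31). Plcl2 rose by 0.25, Plpp1 rose by 0.22, Bace1 fell by 0.66, Mboat1 fell by 0.69 and Tmtc4 fell by 1.58. A log2 difference of -3 or less was found in 10 of the 517 relatives (1.93%), against 2.02% of all genes tested. The genes tested include the members, which the rule made low, while the relatives do not. Outside the zinc finger genes the steepest was Rnf130, a relative of Rnf39 by name, from 23.5 ± 1.79 to 0.386 ± 0.191 CPM (-5.86), and Rnf152 fell by 5.04. Others were Bmp7, from 5.49 ± 0.606 to 0.147 ± 0.111 CPM (-5.07), and Gas6, from 2.43 ± 0.380 to 0.0993 ± 0.117 CPM (-4.45). Gas7 fell from 1.48 to 0.238 CPM (-2.58). These values are without treatment. With H2O2 the relatives named here had the same direction, but Car7 (-0.91, adjusted p = 0.0512 with edgeR) and Slc6a6 (0.06, adjusted p = 0.165) did not pass. Gas1, Gas6 and Gas7 share a name from growth arrest and are not related in sequence.

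A list of 37 genes for DNA methylation, Polycomb and other silencing machinery, some of which remove silencing marks, was measured beside the members. Of 36 tested, 19 (52.8%) were higher and 9 (25%) lower in the untreated knockout, against 33.9% and 32.9% of all genes tested. Of the enzymes that remove marks, Tet3 (log2 0.29) and Kdm6b (0.50) were among the higher genes. Tet2 (-0.25) and Kdm6a (-0.37) were among the lower ones, so these shares do not count silencing enzymes alone. With H2O2 17 were higher and 8 lower. Without replicate 9, 50% were higher and 25% lower in the untreated comparison. The median log2 difference was 0.14 without treatment and 0.13 with H2O2. Uhrf1, which recruits the maintenance DNA methyltransferase to replicated DNA, averaged 94.4 ± 4.48 CPM in untreated wild type and 214.7 ± 6.96 CPM in untreated knockout (log2 1.22). The de novo methyltransferase Dnmt3a averaged 26.7 ± 1.56 and 47.4 ± 2.75 CPM (0.86). Dnmt3l, its cofactor without catalytic activity, was low in both, at 0.105 and 0.912 CPM (3.08).

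Phf19, a Polycomb accessory factor, averaged 16.4 ± 1.63 and 44.9 ± 2.94 CPM (log2 1.49), and the catalytic subunit Ezh2 56.2 and 74.9 CPM (0.45). Of the histone H3 methyltransferases of heterochromatin, Suv39h1 averaged 28.5 ± 2.27 and 50.2 ± 2.16 CPM (0.85). Among those that fell were Cbx7 (by 0.49 on the log2 scale), Cbx8 (by 0.44), Ezh1 (by 0.36) and the demethylase Kdm6a (by 0.37). Uhrf1 and Dnmt1 are also genes of replicating cells. The part of cell division in their increases, and in those of the other genes on the list, was not tested. All these values are transcript levels, and neither promoter methylation nor histone marks were measured here. Their part in the silence of the 43 genes was therefore not tested.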

How the data were processed

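Expected counts per gene in 15 libraries were read as deposited by the authors, all of them whole numbers. Cutadapt, STAR, RSEM and build mm10 appear in the submitters' processing notes, without versions or settings, and no annotation version is given in the sources used here. The RPKM values deposited by the authors scale the same libraries by gene length. Library totals were 12.3 to 16.0 M counts.

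The members and gene lists were chosen with earlier results of these data known, and roles were assigned by hand once the members were known. CPM of members is the count over the library total. A gene of 0 knockout counts was set at a floor of 3 counts over the 7 libraries. Ratios carry 95% exact (Clopper-Pearson) intervals, which cover counting error only. Tests used edgeR 4.0.16 in R 4.3.3 (TMM, filterByExpr, robust quasi-likelihood, 13085 genes, 4 group means, 11 residual degrees of freedom, Benjamini-Hochberg adjustment). Approximate SEs come from the F statistic. Replicate 9 was kept as wild type, as its title says. On simulated data for H2O2 in wild type (12797 genes), the test recovered 93 of 100 genes changed 1.5-fold and 99 of 100 changed 2-fold. It made 14 false calls of 206. Recovery at the level of the members, a median of 3.63 CPM against 27.4 CPM over genes tested, was not tested separately. Alternatives were DESeq2 1.42.0, RLE size factors, no filter on low counts, only the 2 groups compared, other limits of the rule, and leaving out each library.

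The members named with values were the 15 of highest wild-type CPM, the 5 of smallest p with H2O2, the 3 of lowest wild-type CPM and up to 4 per role. The other 12, and some of these, are given by their ranges, except that Ctla2a is given in full beside its neighbours. Single relatives of some members are not reported here. Steep neighbours are those with a log2 difference of -3 or less. Positions are from GENCODE M21 (mm10) and promoters from RefSeq on GRCm38.p6. Transcript copies were searched with BLAST 2.17.0 at 90% identity over 50% of length.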

Additional observations from a re-analysis of the deposited data

Results flagged for a closer look

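Of 86 groups examined (43 members in the 2 wild-type groups of 4 libraries), 4 held a library whose gap to the nearest other was a large part of the group's range. Chance alone flags about 1 in 20 groups, and 4 of 86 is near that share. Fndc3c1 was at 21.6 CPM in untreated wild-type replicate 12, against 23.4 to 23.7 CPM in the other 3, and at 24.3 CPM in treated replicate 15, against 25.3 to 25.4 CPM. Dsc2 was at 16.1 CPM in untreated replicate 9, against 15.6 to 15.7 CPM. Plcl1 was at 9.60 CPM in untreated replicate 10, against 8.45 to 8.61 CPM.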

How the results depend on the processing

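The number of members follows the limits of the rule: 14 with 0 knockout counts, 75 with a wild-type mean of 1 CPM, and 21 with a mean of 4 CPM. Other limits and scalings gave 43 to 51. Leaving out each library gave 41 to 48 members, a median level of 3.48 to 3.71 CPM (0.904 in RPKM), and 0 to 0 members past the test with H2O2. The share of neighbours lower in the knockout was then 40.5% to 46.8% without treatment and 44.3% to 46.8% with H2O2. Relatives were lower in 29.8% to 33.3% without treatment and 27.9% to 31.1% with H2O2, and higher in 24.5% to 28.2% and 23.4% to 26.7%. Genes of the list for silencing and mark removal were lower in 22.2% to 25% and 19.4% to 25%. They were higher in 50% to 52.8% and 44.4% to 50%. The CpG island-like share of member promoters was 29.6% at a ratio of 0.75, against 52.5% of tested genes and 29.7% of all entries. No result changed direction under the alternatives run. Single genes were put through the alternatives only for the steep neighbours and the members of smallest p with H2O2. The other named neighbours, relatives and genes of the silencing list were followed only as sets. Whether their single calls hold was not tested. Of the steep neighbours, Gm49391 alone lost its call, in 7 alternatives without treatment and 13 with H2O2. Its adjusted p was between 0.0104 and 0.105 without treatment, and the cause was not tested. The fitted log2 differences of 4 steep neighbours moved by over 1.5-fold when the only untreated knockout library with a count was left out: Nyx to -6.65 (replicate 1), Fyb2 to -6.52 (replicate 4), and Gm49392 to -6.66 and Gm49391 to -6.21 (replicate 2). No paired analysis was possible because the groups share no replicate numbers. Depth limits the knockout side: for a member with no knockout count, a level under about 0.0298 CPM, the floor of 3 counts, is not excluded.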
